A study of Arabidopsis thaliana with 30 samples.

Results

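Rosettes of the Arabidopsis thaliana mutants uvr8-2 and cry1cry2 were compared after a morning in sunlight under the UVA+B filter, the filter of the series named for letting both UV-A and UV-B through. The comparison rests on 4 of the 30 RNA-seq libraries, 2 of each genotype, and is described across the 19980 genes, of 34212 loci in the count table, that passed a filter on low counts. The uvr8-2 line is mutated in UVR8 and keeps its cryptochromes. The cry1cry2 line is mutated in both CRY1 and CRY2 and keeps UVR8. Their wild type was Ler, which has all 3 receptors and was sampled under the same filter. All plants were 3 weeks old, were raised indoors under a film that kept lamp UV-A off them, and were harvested after 6 h outdoors on 1 day. A block sample was 5 pooled rosettes, and each library held RNA from 2 field blocks. Each genotype is 1 mutant line, so the line and the named mutations cannot be told apart here. The p-values measure the spread between such pooled libraries. The same genotypes were also sampled under 4 further filters, named UVA, UVA350, UV0 and blue0, for which the labels give no wavelengths. The labels call all 5 filters long-pass, that is, they block light below a cut-off.

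UVR8 is the plant receptor of UV-B. On absorbing UV-B its dimer falls apart, the monomers bind the ubiquitin ligase COP1, and the transcription factors HY5 and HYH accumulate and switch on genes of flavonoid synthesis, DNA repair and photoprotection. RUP1 and RUP2 return UVR8 to the dimer. The cryptochromes CRY1 and CRY2 absorb blue and UV-A light, also inhibit COP1 and so also act through HY5, and are held in check by BIC1 and BIC2. The comparison therefore sets plants with cryptochromes but no functional UVR8 beside plants with UVR8 but no functional cryptochromes.

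The 4 libraries held between 16388971 and 19200443 estimated counts, and the 30 libraries between 12109222 and 22865826. Counts from chloroplast genes made up 0.230% and 0.413% of the uvr8-2 libraries and 0.260% and 1.165% of the cry1cry2 libraries. UVR8 transcript was present in uvr8-2, at 144 and 141 CPM (counts scaled to library size), and in cry1cry2 at 108 and 108 CPM. CRY1 was at 94.5 and 97.5 CPM in uvr8-2 and at 46.7 and 47.1 CPM in cry1cry2, and CRY2 at 81.3 and 106 CPM against 40.1 and 59.7 CPM. Transcripts of all 3 mutated genes were thus still measured in their mutants, with the 2 cryptochrome transcripts lower in cry1cry2 (adjusted p = 3.65e-06 and 0.00134). The table counts reads per gene, so it shows neither the protein nor the lesion. As a tissue check, 4 rosette leaf genes (RBCS1A, RCA, LHCB3 and LHCB6) summed to 29014 and 30075 CPM in uvr8-2 and to 24031 and 21741 CPM in cry1cry2. These 4 genes are also on the antenna and Rubisco list described below. Markers of flower organs summed to between 4.41 and 6.59 CPM over the 4 libraries. Guard cell markers summed to between 106.5 and 117.1 CPM, phloem markers to between 292 and 357 CPM and trichome markers to between 12.0 and 17.2 CPM. Some members of the phloem and trichome lists were called between the genotypes, and so was PYK10 of the root list. Root markers summed to 24.4 and 27.0 CPM in uvr8-2 and to 66.3 and 78.1 CPM in cry1cry2, nearly all of it from the beta-glucosidase gene PYK10, while COBL9 was at 0 in the 4 libraries. The part of these marker differences in the results was not tested. In rosettes sampled whole, fewer cells of a type and less RNA per cell cannot be told apart.

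Differences between the mutants were spread over the genome. Of the 19980 genes, 4905 (24.5%) were called at an adjusted p under 0.05. Of these, 2629 (13.2%) were higher in uvr8-2 and 2276 (11.4%) were higher in cry1cry2. Most differences were small: the median size among the calls was 0.64 on the log2 scale for genes higher in uvr8-2 and 0.60 for genes higher in cry1cry2. A difference of at least 2-fold was found for 613 called genes (3.07%) higher in uvr8-2 and for 454 (2.27%) higher in cry1cry2, and one of at least 4-fold for 143 and 97. The median over all genes tested was 0.003. The 2 libraries of each genotype lay on separate sides for 11976 genes (59.9%). The 5 nuclear chromosomes had 23.7% to 26.2% of their tested genes called, while 0 of the 54 chloroplast and 0 of the 19 mitochondrial genes tested were called. Organelle counts varied widely between replicates, so this does not show equal levels. In the 2 cry1cry2 libraries, chloroplast genes made up 0.260% and 1.165% of the counts and mitochondrial genes 0.00875% and 0.0313%. The count of calls fell to 2212 without library 1 of uvr8-2, to 2480 without library 1 of cry1cry2 and to 3096 without library 2 of cry1cry2, and was 5020 without library 2 of uvr8-2. A fit to the 4 libraries alone called 1399 genes. These calls are from the quasi-likelihood test of edgeR with Benjamini-Hochberg adjustment, as are all adjusted p-values. All log2 differences below are uvr8-2 minus cry1cry2, so that a negative value means a higher level in cry1cry2, and each is given with its standard error (SE).

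**Figure D1:**
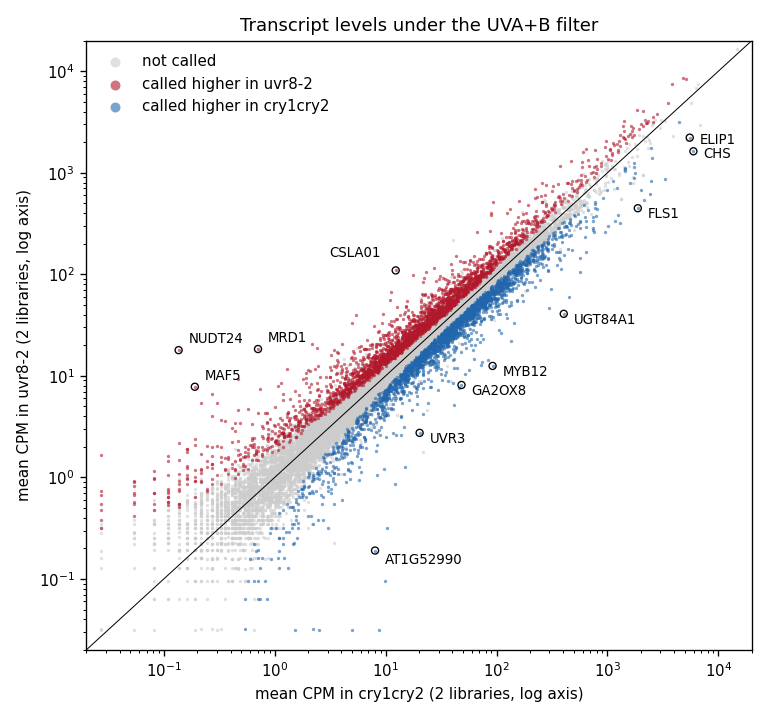
Mean CPM of each gene in uvr8-2 against cry1cry2 under UVA+B, both axes logarithmic, with called genes in colour and the line of equality in black; genes at 0 in either genotype are not drawn. Calls lie on both sides of the line, and CHS, ELIP1 and FLS1 stand out among the most abundant transcripts that were higher in cry1cry2.

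The feedback genes of UV-B signalling were lower in uvr8-2. RUP1 stood at 14.8 and 8.09 CPM in uvr8-2 and at 67.5 and 45.0 CPM in cry1cry2, a log2 difference of -2.30 ± 0.37 (adjusted p = 0.000327). RUP2 stood at 45.1 and 37.0 CPM against 123 and 83.9 CPM (-1.33 ± 0.24, adjusted p = 0.000538). HY5 was at 40.5 and 33.8 CPM in uvr8-2 and at 87.7 and 66.0 CPM in cry1cry2. In all 3 genes both cry1cry2 libraries lay above both uvr8-2 libraries. Such separation, in either direction, held for 59.9% of all genes. For these 3 genes Ler lay near cry1cry2, with HY5 at 69.4 and 61.5 CPM. The HY5 difference was -1.05 ± 0.23 (adjusted p = 0.00333) and was no longer called without library 1 of cry1cry2. HYH differed by -0.87 ± 0.30 (adjusted p = 0.044) and kept its call in 1 of the 4 fits that each left out 1 library. Of the 10 genes on the UVR8 and HY5 list, 4 were called lower in uvr8-2 and 1, UVR8 itself, higher. The shares of all genes were 11.4% lower and 13.2% higher. COP1 and SPA1 to SPA4, subunits of the ligase that HY5 escapes, lay between -0.39 and 0.26 and were not called.

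Among the B-box factors, which act with HY5, 1 of 15 was called. This was BBX22, at 116 and 106 CPM in uvr8-2 and at 219 and 215 CPM in cry1cry2 (-0.97 ± 0.14, adjusted p = 5.98e-05). Of the 16 genes for photoreceptors and blue-light signalling, 3 were called higher in uvr8-2 and 3 lower, against 13.2% and 11.4% of all genes. The higher ones were CRY1, CRY2 and the phototropin gene PHOT1, at 266 and 275 CPM against 155 and 191 CPM (0.65 ± 0.12, adjusted p = 0.000622). The lower ones were BIC2, the phytochrome gene PHYD (-0.80 ± 0.14, adjusted p = 0.000392) and CRY3, a photolyase-like cryptochrome of the organelles. CRY3 was at 54.2 and 51.3 CPM in uvr8-2 and at 129 and 116 CPM in cry1cry2 (-1.22 ± 0.15, adjusted p = 1.11e-05). BIC2 was at 145 and 129 CPM against 240 and 189 CPM (-0.65 ± 0.16, adjusted p = 0.00508), and this call was lost without library 1 of cry1cry2. BIC1 differed by -0.36 ± 0.19 (adjusted p = 0.174).

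The clearest group difference lay in the phenylpropanoid and flavonoid pathway, which turns phenylalanine into UV-absorbing flavonols and sinapate esters. All 6 early flavonoid enzymes were called lower in uvr8-2, against 11.4% of all genes. Their median log2 difference was -1.88. Chalcone synthase (CHS), the entry enzyme, stood at 1840.3 and 1412 CPM in uvr8-2 and at 6492 and 5409 CPM in cry1cry2. That is 3.66-fold higher in cry1cry2 (log2 difference -1.87 ± 0.29, adjusted p = 0.000149). Flavonol synthase (FLS1), which commits the pathway to flavonols, stood at 445 and 449 CPM against 1946 and 1807 CPM (-2.07 ± 0.36, adjusted p = 0.000552). The 2 genotypes did not overlap in either gene, which also held for 59.9% of all genes. Ler was close to cry1cry2, with 5081 and 5297 CPM of CHS. Chalcone isomerase (CHI), the isomerase-like CHIL, flavanone hydroxylase (F3H) and flavonoid hydroxylase (F3'H) differed by -1.39 to -1.97. Each of the 6 was called again in every fit that left out 1 library and kept its call with the 4 libraries alone.

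The steps before and after this core differed in the same direction. Of the 9 general phenylpropanoid genes, 6 were called lower in uvr8-2 and none higher, against 11.4% and 13.2% of all genes. PAL1, a phenylalanine ammonia lyase at the head of the pathway, was at 640.1 and 585 CPM in uvr8-2 and at 2598 and 2204 CPM in cry1cry2 (-1.97 ± 0.27, adjusted p = 4.64e-05). PAL2, the cinnamate hydroxylase gene C4H and the coumarate ligase gene 4CL3 differed by -2.01 ± 0.25, -1.83 ± 0.21 and -1.77 ± 0.25. PAL3, 4CL2 and 4CL5 lay between 0.13 and 0.26 and were not called. All 6 genes of flavonol glycosylation were lower in uvr8-2, from UGT78D1 at -0.60 ± 0.12 to UGT91A1 at -2.57 ± 0.38. RHM1, which makes the rhamnose donor, was at 994 and 752 CPM against 3375 and 3235 CPM (-1.92 ± 0.21, adjusted p = 3.67e-06). All 7 sinapate ester genes were lower as well. The widest gap among them was in UGT84A1, which joins glucose to hydroxycinnamic acids, at 45.4 and 36.2 CPM in uvr8-2 and at 460.3 and 347 CPM in cry1cry2 (-3.31 ± 0.61, adjusted p = 0.00115). Ferulate hydroxylase (FAH1) differed by -1.41 ± 0.14 (adjusted p = 9.99e-07). With the 4 libraries alone, 4 of the 7 sinapate genes were called.

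Late anthocyanin enzymes stood apart from the flavonol branch. Of 6 tested, 1 was called lower in uvr8-2 and none higher, against 11.4% and 13.2% of all genes. This was the glutathione transferase GSTF12 that carries flavonoids to the vacuole, at 58.2 and 49.0 CPM in uvr8-2 and at 148 and 124 CPM in cry1cry2 (-1.34 ± 0.21, adjusted p = 0.000137). Dihydroflavonol reductase (DFR) was at 95.1 and 72.5 CPM in uvr8-2, at 92.2 and 91.6 CPM in cry1cry2 and at 201 and 237 CPM in Ler. Its difference between the mutants was -0.13 ± 0.22 (adjusted p = 0.702), and the other uncalled members lay between -0.54 and -0.04.

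Of the 18 regulators of the flavonoid pathway, 8 were called lower in uvr8-2 and none higher, against 11.4% and 13.2% of all genes. MYB12, an activator of the flavonol genes, was at 13.4 and 11.7 CPM in uvr8-2 and at 94.1 and 90.0 CPM in cry1cry2 (-2.88 ± 0.37, adjusted p = 4.13e-05). Its relative MYB111 was at 50.8 and 72.9 CPM against 165 and 177 CPM (-1.47 ± 0.40, adjusted p = 0.0127), a call that was lost without library 1 of uvr8-2 and without library 2 of cry1cry2. PAP1, the activator of the anthocyanin branch, stood at 88.2 and 59.1 CPM in uvr8-2 and at 61.4 and 43.5 CPM in cry1cry2, so its libraries overlapped (0.49 ± 0.31, adjusted p = 0.265). MYB12 and MYB111 therefore went the way of the flavonol enzymes, while PAP1, like most anthocyanin enzymes, was not called. The count of 8 dropped to 2 without library 1 of uvr8-2 or library 1 of cry1cry2, to 5 without library 2 of cry1cry2, and to 4 with the 4 libraries alone.

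Both photolyase genes for UV damage were also lower in uvr8-2. Of 15 genes tested for photolyases and DNA repair, 6 were called lower, none was called higher and 9 were not called. The shares of all genes were 11.4% lower and 13.2% higher. UVR3, the photolyase for pyrimidine-pyrimidone photoproducts, was at 2.15 and 3.34 CPM in uvr8-2 and at 20.02 and 20.5 CPM in cry1cry2, 7.36-fold higher in cry1cry2 (-2.88 ± 0.36, adjusted p = 1.2e-05). PHR1, the photolyase for cyclobutane dimers, was at 12.9 and 10.8 CPM against 31.1 and 27.9 CPM (-1.31 ± 0.21, adjusted p = 0.000128). RAD52-2, of a family that acts in homologous recombination, was at 35.3 and 41.5 CPM against 82.7 and 94.1 CPM (-1.203 ± 0.11, adjusted p = 6.41e-07). The damage-binding gene DDB2 differed by -1.07 ± 0.16. These 4 genes had no overlap between genotypes, and the count of 6 was the same in each fit without a library and with the 4 libraries alone. A lack of overlap between genotypes was found for 59.9% of all genes tested. BRCA1, SOG1 and the excision repair genes UVH1, ERCC1 and UVH6 lay between -0.25 and 0.11 and were not called.

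In plastid photoprotection the direction was the same. Of 12 genes, 5 were called lower in uvr8-2 and none higher, against 11.4% and 13.2% of all genes. GPX7, a plastid glutathione peroxidase, was at 104 and 112 CPM in uvr8-2 and at 310.4 and 275 CPM in cry1cry2 (-1.44 ± 0.22, adjusted p = 0.000121). ELIP1, an early light-induced protein of the thylakoid that is made under excess light, was at 2515 and 1914 CPM against 5931 and 5098 CPM (-1.32 ± 0.40, adjusted p = 0.0232). Its relative ELIP2 was at 899.7 and 745 CPM against 2751 and 2234 CPM (adjusted p = 0.0494). The libraries of the 2 genotypes did not overlap for these genes, which also held for 59.9% of all genes. The calls of ELIP1 and ELIP2 were lost in each of the 4 fits that left out a library. The count of 5 was 1 without library 1 of uvr8-2, 2 without library 1 of cry1cry2, and 3 without library 2 of either genotype, with the 4 libraries alone and with no filter on low counts.

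**Figure D2:**
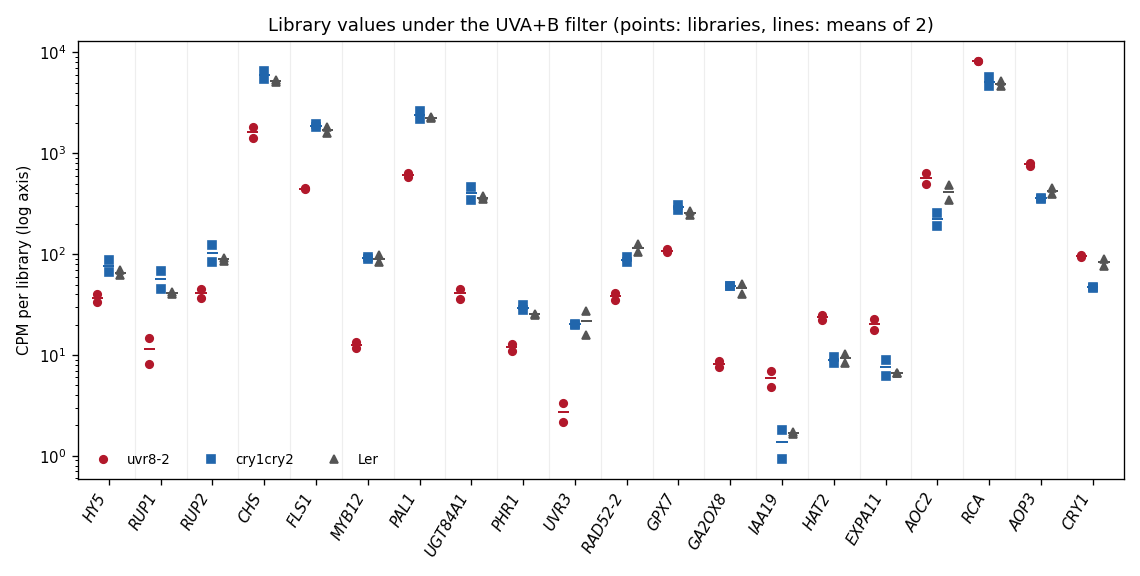
CPM of 20 named genes in each library under UVA+B on a log axis; points are libraries, short lines are means of 2, and Ler is shown for comparison. From HY5 to GA2OX8 both uvr8-2 libraries lie below both cry1cry2 libraries, and from IAA19 to CRY1 they lie above them.

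Auxin genes had more calls in the other direction. Of the 20 tested, 9 were called higher in uvr8-2 and 2 lower, against 13.2% and 11.4% of all genes. Their median log2 difference was 0.63. IAA19, an auxin-induced repressor that marks elongation growth, was at 6.97 and 4.81 CPM in uvr8-2 and at 1.80 and 0.925 CPM in cry1cry2 (2.11 ± 0.43, adjusted p = 0.00157). TAA1, which starts auxin synthesis from tryptophan, was at 5.07 and 4.62 CPM against 2.34 and 1.91 CPM (1.19 ± 0.26, adjusted p = 0.00223). IAA7 differed by 0.91 ± 0.17 (adjusted p = 0.000727). IAA14 was an exception: it was lower in uvr8-2, at 4.496 and 3.92 CPM against 23.9 and 19.3 CPM (-2.36 ± 0.26, adjusted p = 3e-06). The count of 9 was 5 without library 1 of uvr8-2, 4 without library 1 of cry1cry2 and 5 with the 4 libraries alone.

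Shade and PIF genes gave 2 calls among 15, both higher in uvr8-2, a share near the 13.2% of all genes called higher. They were the homeobox gene HAT2, at 25.1 and 22.4 CPM against 8.27 and 9.58 CPM (1.41 ± 0.26, adjusted p = 0.000644), and PIF6 (0.87 ± 0.25, adjusted p = 0.0142). The PIF6 call was lost without library 1 of either genotype. PIF4, PIF5 and PIL1 lay between 0.25 and 0.35 and were not called. Of 19 cell wall loosening genes, 3 were called higher in uvr8-2, again a share near 13.2%, and the median of the list was -0.02. The expansin EXPA11 was at 22.9 and 17.8 CPM in uvr8-2 and at 6.15 and 8.98 CPM in cry1cry2 (1.43 ± 0.17, adjusted p = 7.41e-06), and EXPA3 and the xyloglucan transferase XTH19 differed by 0.54 ± 0.11 and 1.65 ± 0.48. Without library 1 of uvr8-2 the count was 1.

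Genes of gibberellin, brassinosteroid and PRE action split. Of 23 tested, 4 were called higher in uvr8-2 and 7 lower, against 13.2% and 11.4% of all genes. The 2 with the widest gap inactivate gibberellin. GA2OX8 was at 7.54 and 8.73 CPM in uvr8-2 and at 48.3 and 48.3 CPM in cry1cry2 (-2.57 ± 0.23, adjusted p = 4e-07). GA2OX2 was at 14.9 and 13.9 CPM against 91.4 and 75.7 CPM (-2.53 ± 0.21, adjusted p = 2.5e-07). GA3OX1, which makes active gibberellin, was lower as well (-1.85 ± 0.28, adjusted p = 9.95e-05), so enzymes of synthesis and of breakdown were both lower in uvr8-2. The brassinosteroid-activated factor BES1 was higher, at 50.9 and 40.8 CPM against 27.1 and 24.4 CPM (0.83 ± 0.13, adjusted p = 9.59e-05). The count of 7 was 4 without library 1 of cry1cry2.

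For all genes, the shares called higher and lower in uvr8-2 were 13.2% and 11.4%. Of 17 antenna and Rubisco genes tested, 11 were called higher in uvr8-2, 1 was called lower and 5 were not called. Their median was 0.57. Rubisco activase (RCA) was at 8310.1 and 8319 CPM in uvr8-2 and at 5665 and 4631 CPM in cry1cry2 (0.69 ± 0.12, adjusted p = 0.000282). The antenna gene LHCB4.3 had the widest gap, with 292 and 243 CPM against 90.14 and 83.5 CPM (1.62 ± 0.19, adjusted p = 8.64e-06). This count depended on the libraries: it was lower without library 1 of uvr8-2 and without library 2 of cry1cry2, and was 2 with the 4 libraries alone. Chlorophyll synthesis had 1 call among 14, CHLI1 (0.38 ± 0.12, adjusted p = 0.0243), which was kept without library 1 of uvr8-2 only.

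Parts of defence-related metabolism differed as well. For scale, 24.5% of all genes were called, 13.2% higher in uvr8-2 and 11.4% lower. Of 22 jasmonate genes, 7 were called higher in uvr8-2 and none lower. They included LOX2, AOS, AOC1, AOC2 and OPR3 of jasmonate synthesis. AOC2 was at 499 and 642 CPM in uvr8-2 and at 189.5 and 256 CPM in cry1cry2 (1.36 ± 0.20, adjusted p = 8.3e-05). The JAZ repressors, MYC2 and the VSP response genes were not called. The count was 4 without library 1 of cry1cry2 or without library 2 of uvr8-2. Of 16 aliphatic glucosinolate genes, 9 were called higher and 1 lower. AOP3, which sets the side chain of these glucosinolates in Ler, was at 744 and 806 CPM against 364 and 349.5 CPM (1.12 ± 0.11, adjusted p = 9.99e-07), and MAM1, of chain elongation, differed by 0.88 ± 0.14 (adjusted p = 0.000184). The count of 9 was 4 without library 2 of cry1cry2 and 2 with the 4 libraries alone. The indole glucosinolate genes had 1 call in 7, CYP83B1, which no fit without a library kept.

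Of 15 salicylate and defence genes, 1 was called higher in uvr8-2 and 2 lower, near or below the shares of all genes (13.2% and 11.4%). PAD4, a lipase-like regulator of salicylate signalling, was at 23.7 and 23.2 CPM against 41.3 and 38.9 CPM (-0.77 ± 0.18, adjusted p = 0.00458). SAG101 and SARD1 differed by 0.73 ± 0.16 and -1.01 ± 0.31, and each of these calls was lost in 2 of the 4 fits without a library. Among 11 genes of the reactive oxygen response, 3 were called lower and 1 higher. OXI1, a kinase induced by oxidative stress, was at 1.77 and 3.40 CPM against 10.3 and 14.3 CPM (-2.25 ± 0.43, adjusted p = 0.000891), and the zinc finger gene ZAT12 at 18.4 and 25.2 CPM against 71.9 and 68.6 CPM (-1.69 ± 0.25, adjusted p = 0.000106). Of 9 heat shock genes tested, 2 were called lower, HSP70 (-1.56 ± 0.36, adjusted p = 0.0049) and HSP90.1 (-1.07 ± 0.33, adjusted p = 0.0256). The count was 1 without library 1 of uvr8-2, 0 without library 1 of cry1cry2 or library 2 of uvr8-2, and 4 without library 2 of cry1cry2.

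The clock genes gave 1 call among 19, PRR7, at 328 and 297 CPM against 229.5 and 235 CPM (0.43 ± 0.09, adjusted p = 0.00218). Of 15 flowering time genes tested, 5 were called higher in uvr8-2 and 1 lower, against 13.2% and 11.4% of all genes. The floral repressor MAF5 was at 8.36 and 7.25 CPM in uvr8-2 and at 0.0544 and 0.327 CPM in cry1cry2, and MAF4 differed by 3.66 ± 0.70 (adjusted p = 0.000754). The floral repressor SVP was at 159 and 127 CPM against 95.6 and 88.1 CPM (0.64 ± 0.12, adjusted p = 0.000763). FLC, the best known relative of the MAF genes, held 12 counts in uvr8-2 and 2 in cry1cry2, a ratio of 7.03 with a 95% counting interval of 1.57 to 64.7, and was not called (adjusted p = 0.0777). Of 6 reference genes, UBQ10 and ACT2 were called higher in uvr8-2 (by 0.61 and 0.27), 1 gene was called in each direction under DESeq2 size factors, and at most 1 of the 6 was called higher in any fit without a library.

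**Figure D3:**
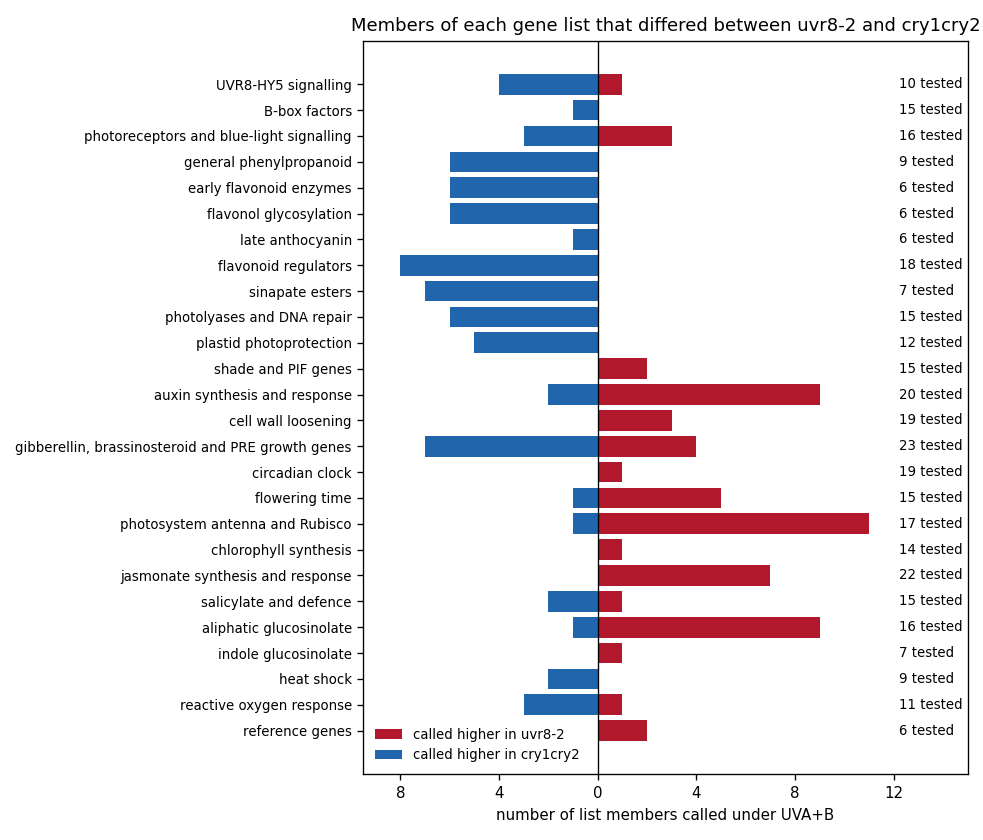
Number of members of each gene list called under UVA+B, to the right for genes higher in uvr8-2 and to the left for genes higher in cry1cry2, with the number tested beside each bar. Phenylpropanoid, flavonoid, sinapate, repair and photoprotection lists have bars to the left only, and the auxin, antenna, jasmonate and aliphatic glucosinolate bars lie wholly or mostly to the right.

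Among the genes with the widest gaps in favour of uvr8-2 was SADHU3-2, a locus derived from a retrotransposon. It was at 6.71 and 7.38 CPM in uvr8-2, at 5.85 and 7.04 CPM in Ler and at 0 in both cry1cry2 libraries, which makes it at least 86.3-fold higher in uvr8-2 (from 3 counts over the group). MAF5 followed the same pattern (5.30 ± 0.51, adjusted p = 9.99e-07), with Ler at 10.8 and 9.66 CPM. MRD1 was at 17.35 and 19.4 CPM in uvr8-2, at 1.09 and 0.327 CPM in cry1cry2 and at 23.5 and 25.1 CPM in Ler (4.68 ± 0.28, adjusted p = 2.39e-09). CSLA01, of the family of mannan synthases, was at 105 and 113 CPM against 10.4 and 14.3 CPM (3.15 ± 0.47, adjusted p = 0.000173). In these 4 genes uvr8-2 was near Ler and cry1cry2 stood apart.

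Some of the other genes at this end were much higher in 1 uvr8-2 library than in the other. The Nudix hydrolase gene NUDT24 was at 32.4 and 3.40 CPM in uvr8-2 and at 0.109 and 0.163 CPM in cry1cry2, with Ler at 1.36 and 0.960 CPM. Its call (6.97 ± 1.46, adjusted p = 0.00293) was lost without library 1 of uvr8-2. The galactinol synthase gene GolS2 was at 8.87 and 1.93 CPM against 0.272 and 0.163 CPM (4.59 ± 1.55, adjusted p = 0.0412), and kept its call in 1 of the 4 fits without a library. The asparaginase gene ASPGB1, at 11.3 and 2.12 CPM against 0.326 and 0.218 CPM, kept its call in each (4.58 ± 0.81, adjusted p = 0.000544). AT1G18265 was even between libraries, at 8.93 and 9.89 CPM against 0.272 and 0.653 CPM (4.32 ± 0.51, adjusted p = 1.09e-05). CHAT, which makes a green leaf volatile ester, was at 18.9 and 19.1 CPM against 2.23 and 2.61 CPM (2.97 ± 0.36, adjusted p = 2.07e-05), with Ler between them at 10.3 and 4.86 CPM. The rest of the 15 widest were AT1G76530, WNK9, AT1G22160, AT1G73700, AT2G26695 and RLP6, at 2.90 to 4.13, and each kept its call without any 1 of the libraries.

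At the other end, AT5G24130 was at 0.0633 and 0.128 CPM in uvr8-2, at 10.01 and 9.80 CPM in cry1cry2 and at 7.06 and 7.93 CPM in Ler. Its 3 counts in uvr8-2 and 364 in cry1cry2 give a ratio of 103.6 with a counting interval of 35.2 to 504.5. Its locus neighbours SIG5, a plastid sigma factor gene that was not called (-0.88 ± 0.61, adjusted p = 0.317). AT1G52990 was at 0.317 and 0.0642 CPM in uvr8-2 and at 9.08 and 6.97 CPM in cry1cry2, 40.4-fold higher in cry1cry2 (-5.34 ± 0.55, adjusted p = 2.16e-06). AT1G30190 was at 0.886 and 0.835 CPM against 12.6 and 11.7 CPM (-3.81 ± 0.38, adjusted p = 9.99e-07), and AT1G64340 at 1.203 and 1.35 CPM against 15.5 and 14.5 CPM (-3.55 ± 0.30, adjusted p = 5.99e-07). For all 4 the uvr8-2 libraries stood apart, with cry1cry2 near Ler. AT5G62210 was at 53.4 and 65.9 CPM against 465 and 431 CPM (-2.91 ± 0.33, adjusted p = 1.14e-05).

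AT4G08680 had the widest fitted difference in this direction but rested on 1 library: it was at 17.2 and 0.109 CPM in cry1cry2 and at 0.0633 and 0 CPM in uvr8-2 (adjusted p = 0.0108), and its call was kept only in the fit without library 2 of cry1cry2. Its 1 count in uvr8-2 and 319 in cry1cry2 give a ratio of 272.3, with a counting interval of 48.5 to 10790. The 15 widest also held UGT84A1, UVR3 and MYB12, described above, the transporter gene ABCI21 (-2.66 ± 0.34), AT1G78820, AT3G24750, AT4G20820, AT4G27570 and AT4G15660. Counts of AT4G27570 and AT4G15660 are uncertain, because these genes have close copies with which reads can be shared. The same holds for the MAF genes.

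Beside Ler, the mutants differed in how many genes were called. Both comparisons use the same Ler libraries and the same mutant libraries as above, so their values are set side by side and are not independent. In uvr8-2, 3034 genes (15.2%) were called against Ler, 1356 (6.79%) higher and 1678 (8.4%) lower. In cry1cry2, 172 genes (0.861%) were called, 60 (0.3%) higher and 112 (0.561%) lower. All 6 early flavonoid enzymes were lower than Ler in uvr8-2, with a median of -1.94, and none of the 6 was called in cry1cry2, with a median of -0.05. CHS differed from Ler by -1.67 ± 0.29 in uvr8-2 (adjusted p = 0.00088) and by 0.20 ± 0.28 in cry1cry2 (adjusted p = 0.831). The late anthocyanin enzymes were lower than Ler in both lines: 6 of 6 were called in uvr8-2, with a median of -1.67, and 5 of 6 in cry1cry2, with a median of -1.27. DFR, uncalled between the mutants, was lower than Ler by similar steps, at -1.38 in uvr8-2 and -1.25 in cry1cry2. MAF5 differed from Ler by -5.69 ± 0.50 in cry1cry2 and by -0.39 ± 0.30 in uvr8-2. The count in uvr8-2 fell to 680 without its own library 1 and to 867 without library 2 of Ler, and to 114 with the 4 libraries alone. In cry1cry2 it was 35 and 60 without its library 1 or 2, 32 without library 1 of Ler, 20 with the 4 libraries alone and 270 by DESeq2.

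Under the other filters the same genotypes were measured in other libraries. Under UVA, 742 genes (3.71%) were called between uvr8-2 and cry1cry2, 1.66% higher and 2.05% lower in uvr8-2. Under UVA350 the count was 2549 (12.8%), under UV0 2379 (11.9%) and under blue0 495 (2.48%). UVA+B thus had the most calls with all 30 libraries in the fit, but this order was not kept throughout: with only the groups compared, UVA350 had 1547 calls and UVA+B 1399, and without library 1 of uvr8-2 or of cry1cry2 the UVA+B count (2212 or 2480) was below 2549. Leaving out 1 library gave 203 to 508 calls under UVA, 1246 to 1702 under UVA350, 961 to 1863 under UV0 and 105 to 257 under blue0, with the lowest count without library 1 of cry1cry2 under UVA, UV0 and blue0 and without library 1 of uvr8-2 under UVA350. Each library moved its count by over 1.5 times, except library 2 of cry1cry2 under UVA and UVA350 and library 2 of uvr8-2 under UV0. Of the 4905 UVA+B calls, 493 were also called under UVA in the same direction, which is 10.1% of the UVA+B calls and 66.4% of the UVA calls. For UV0 this was 905 genes (18.5% and 38.04%), and for blue0 293 genes (5.97% and 59.2%). UVA350 had the most reversals of the 4: 691 genes were called in the same direction (14.1% and 27.1%), and 352 were called in the opposite direction (7.18% and 13.8%), against 7 opposite calls under UVA, 191 under UV0 and 24 under blue0. Across the 19980 genes, the log2 differences under UVA+B had a Pearson correlation of 0.515 with those under UVA, 0.225 with UVA350, 0.417 with UV0 and 0.384 with blue0. Genes are not independent, and these are descriptions.

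The flavonoid genes were among the reversals. Under UVA none of the 6 early flavonoid enzymes was called. Under UVA350 all 6 were called higher in uvr8-2 (5.9% of all genes were called higher), with a median of 2.13. Under UV0 all 6 were again higher in uvr8-2 (6.29% of all genes), with a median of 1.303, and under blue0 none was called, where 1.2% of all genes were called higher and 1.28% lower. CHS shows the pattern in its levels. In cry1cry2 it stood at 6492 and 5409 CPM under UVA+B, 1637 and 1153 CPM under UVA, 206 and 199 CPM under UVA350, 284 and 451 CPM under UV0 and 68.1 and 89.4 CPM under blue0. In uvr8-2 the same series read 1840.3 and 1412, 993 and 541, 766 and 919, 934 and 765, and 126 and 96.9 CPM. Both cry1cry2 libraries were thus above both uvr8-2 libraries under UVA+B and UVA, and below both under UVA350, UV0 and blue0. The difference was called under UVA+B, UVA350 (2.06 ± 0.29, adjusted p = 0.000114) and UV0 (1.21 ± 0.28, adjusted p = 0.00765), but not under UVA (-0.86 ± 0.28, adjusted p = 0.0974) or blue0 (0.50 ± 0.28, adjusted p = 0.415).

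Other genes changed sign between UVA+B and UVA350 as well. ELIP1 was at 999.6 and 843 CPM in uvr8-2 and at 46.3 and 38.7 CPM in cry1cry2 under UVA350, a difference of 4.44 ± 0.46 (adjusted p = 7.52e-06), against -1.32 under UVA+B. GPX7 went from -1.44 ± 0.22 under UVA+B to 2.70 ± 0.25 under UVA350 (adjusted p = 8.7e-07). RUP2 went from -1.33 ± 0.24 to 1.54 ± 0.27 (adjusted p = 0.000681). Of the 12 photoprotection genes, 8 were called higher in uvr8-2 under UVA350 and 7 under UV0, against 5.9% and 6.29% of all genes. The late anthocyanin enzymes, with 1 call in favour of cry1cry2 under UVA+B, were all 6 called higher in uvr8-2 under UVA350 and 5 of 6 under UV0. PAP1 was called higher in uvr8-2 under each filter other than UVA+B, by 1.55 ± 0.33 under UVA, 2.47 ± 0.35 under UVA350, 2.44 ± 0.33 under UV0 and 2.04 ± 0.34 under blue0. Repair genes were less uniform: RAD52-2 reversed to 0.66 ± 0.12 under UVA350 (adjusted p = 0.000781), while UVR3 lay between -1.002 and 0.04 under the other filters and was not called there.

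Among the growth genes, calls in favour of cry1cry2 came to the fore under the same 2 filters. Of the 20 auxin genes, 1 was called higher in uvr8-2 and 6 lower under UVA350 (6.86% of all genes were called lower), and 0 and 5 under UV0 (5.62%). Of the 19 cell wall genes, none was called higher and 9 lower under UVA350, and none and 7 under UV0. EXPA11 was lower in uvr8-2 by 0.61 ± 0.15 on the log2 scale under UVA350 and by 0.83 ± 0.16 under UV0. IAA19 was at 4.26 to 10.2 CPM in the uvr8-2 libraries under UVA, UVA350 and UV0 and at 3.56 to 8.41 CPM in those of cry1cry2, and its differences there, from -0.44 to 0.88, were not called.

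**Figure D4:**
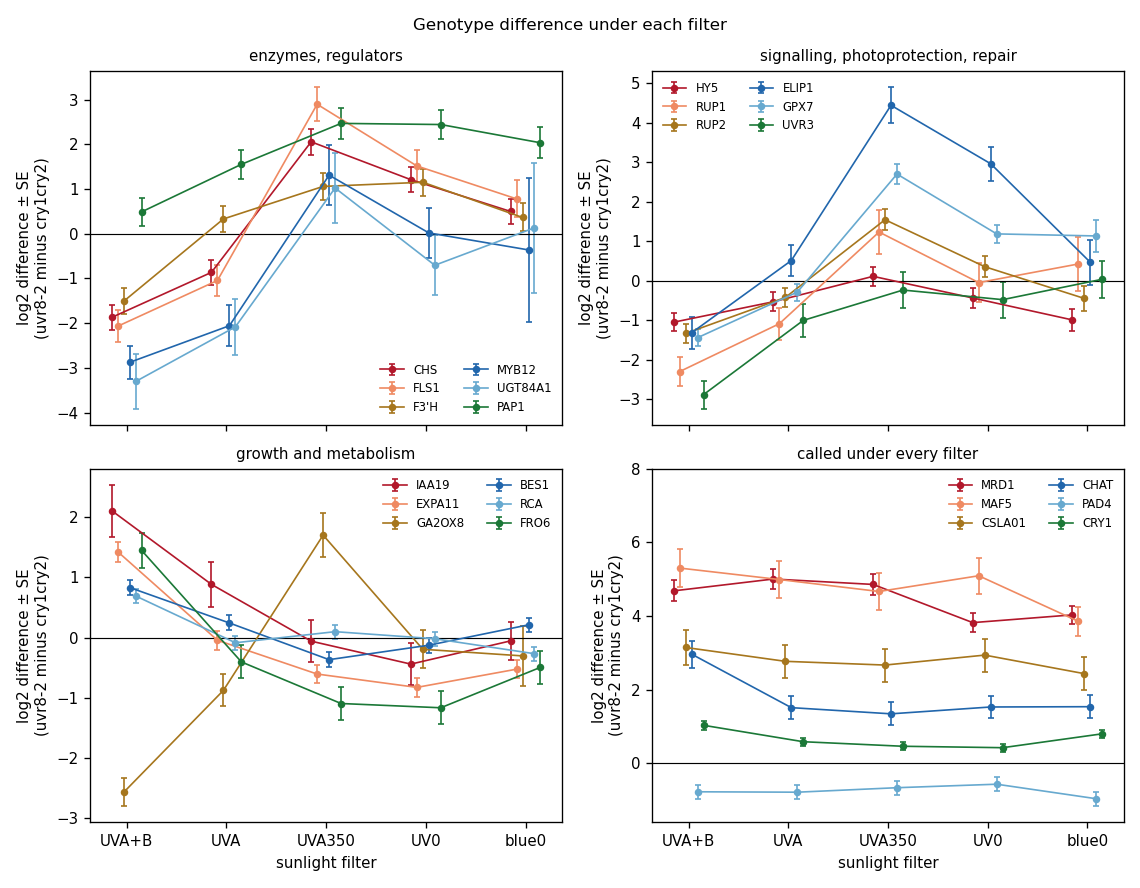
Log2 difference between uvr8-2 and cry1cry2 under each of the 5 filters, as the fitted value with its SE, for 24 genes in 4 panels. CHS, FLS1, ELIP1 and GPX7 lie below 0 under UVA+B and above 0 under UVA350, EXPA11 and FRO6 do the opposite, and MRD1, MAF5 and CSLA01 stay above 2 under every filter.

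A small set of genes differed under every filter. In all, 107 genes, 2.18% of the UVA+B calls, were called in the same direction under all 5 filters, 63 higher in uvr8-2 and 44 higher in cry1cry2. SADHU3-2 was at 0 in all 10 cry1cry2 libraries. MRD1 differed by 3.82 to 5.01 and MAF5 by 3.85 to 5.30 over the filters. CRY1 was in this set, at 0.43 to 1.03, and so were CSLA01, CHAT, RLP6 and MAF4. PAD4 was higher in cry1cry2 under every filter, with differences of -0.57 to -0.96. In 7 pairs, both genes of the set were neighbours on a chromosome in the list of tested loci. They were MRD1 and HEI10, MAF4 and MAF5, MFDX2 and DDB1B, SADHU3-2 and AT3G42660, and a run of 4 loci, UBP21, AGD9, MYC3 and AT5G46780, that makes up 3 pairs. The genes of SADHU3-2 and AT3G42660 differed in opposite directions, and those of the other 6 pairs in the same direction. These genes were picked for naming after their values were seen.

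**Figure D5:**
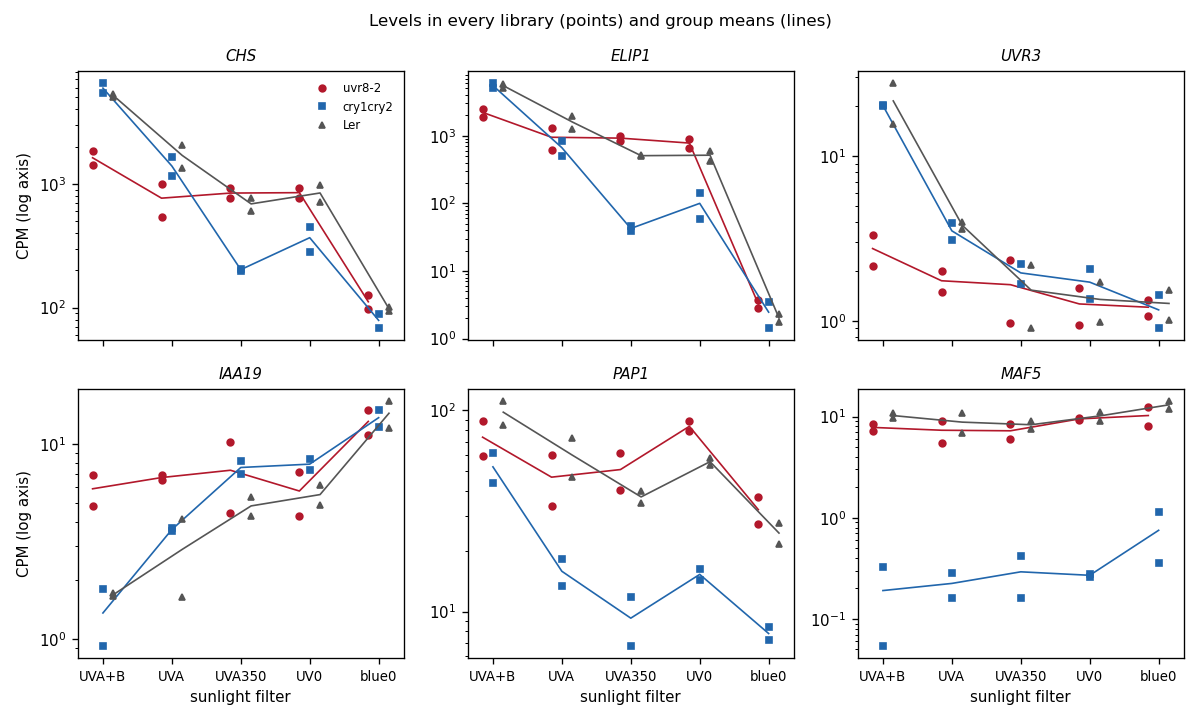
CPM of 6 genes in all 30 libraries by filter, on log axes; points are libraries and lines join group means. CHS and ELIP1 in cry1cry2 start above uvr8-2 under UVA+B and fall below it under UVA350, UVR3 is high under UVA+B in cry1cry2 and Ler, and MAF5 is low in cry1cry2 under every filter.

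Whether the genotype difference itself depended on the filter was tested with contrasts that share the 4 UVA+B libraries. Against UVA, 196 genes (0.981%) differed, 105 (0.526%) upward and 91 (0.455%) downward. Upward means that uvr8-2 minus cry1cry2 was larger under UVA+B. AT3G28270 had the largest upward contrast: under UVA+B it was at 29.6 and 37.0 CPM in uvr8-2 and at 3.64 and 6.21 CPM in cry1cry2, under UVA at 30.1 and 48.1 CPM against 21.8 and 42.6 CPM, giving a contrast of 2.47 ± 0.55 (adjusted p = 0.0362). The ferric reductase gene FRO6 was at 64.0 and 60.7 CPM against 21.2 and 24.5 CPM under UVA+B and at 70.3 and 90.5 CPM against 106 and 107 CPM under UVA (1.85 ± 0.40, adjusted p = 0.0296). In both genes the cry1cry2 libraries were lower under UVA+B than under UVA. The uvr8-2 libraries of the 2 filters overlapped for AT3G28270, and for FRO6 both were lower under UVA+B. Of the 6 early flavonoid enzymes, F3'H alone was called in this contrast (-1.84 ± 0.42, adjusted p = 0.0401), while CHS had -1.01 ± 0.39 (adjusted p = 0.199). RAD52-2 was called too (-1.49 ± 0.16, adjusted p = 0.000161). This count moved with the libraries: it was 73 without library 1 of uvr8-2 under UVA+B, 1145 without its library 2, 24 and 115 without library 1 or 2 of cry1cry2 under UVA+B, 16 without library 1 of uvr8-2 under UVA and 17 without library 2 of cry1cry2 under UVA. With the 8 libraries alone it was 3, and DESeq2 called 579.

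Against blue0, the filter named for the removal of blue light, 831 genes (4.16%) differed, 563 (2.82%) upward and 268 (1.34%) downward. Since the filters are long-pass, blue light and UV cannot be told apart in this contrast. All 6 early flavonoid enzymes were among the downward ones, with a median of -2.37. FLS1 was at 445 and 449 CPM against 1946 and 1807 CPM under UVA+B and at 8.92 and 9.67 CPM against 5.60 and 5.22 CPM under blue0 (-2.85 ± 0.54, adjusted p = 0.00571). The sucrose phosphate synthase gene ATSPS4F was at 313 and 208 CPM against 64.7 and 67.8 CPM under UVA+B, and its contrast was 2.68 ± 0.26 (adjusted p = 7.02e-06). The count ranged from 310 without library 1 of cry1cry2 under UVA+B to 1550 without library 2 of uvr8-2 under UVA+B. It was 375 without library 1 of uvr8-2 under UVA+B, 497 and 388 without library 1 of uvr8-2 or of cry1cry2 under blue0, and 295 with the 8 libraries alone.

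Against the mean of the other 4 filters, 2812 genes (14.1%) differed, 1598 (8%) upward and 1214 (6.08%) downward. All 6 early flavonoid enzymes (median -2.71), all 6 flavonol glycosylation genes (median -2.39) and all 6 late anthocyanin enzymes (median -1.01) were called downward, as were 6 of 7 sinapate genes and 7 of 12 photoprotection genes. CHS had a contrast of -2.60 ± 0.32 (adjusted p = 3.54e-05) and ELIP1 one of -3.41 ± 0.47 (adjusted p = 0.000178). The widest downward contrasts beside these were AT1G52990, ELIP2, AT5G62210 and UGT91A1. Of the 20 auxin genes 7 were called upward and 1 downward, and of the 17 antenna and Rubisco genes 9 and 2. EXPA11 had a contrast of 1.93 ± 0.19 (adjusted p = 1.39e-06). Of the 107 genes called under every filter, 12 were called in this contrast, CHAT (1.48 ± 0.40) and CRY1 (0.46 ± 0.13) among them. MRD1, MAF5 and CSLA01, also of that set, had contrasts of 0.25 ± 0.37, 0.65 ± 0.75 and 0.44 ± 0.49 and were not called. The count of 2812 was 1139 without library 1 of uvr8-2, 1027 without library 1 of cry1cry2 and 1613 without library 2 of cry1cry2, all under UVA+B.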

How the data were processed

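The authors deposited estimated counts per gene for 30 libraries in 1 table, from a stranded mRNA kit per the labels' protocols. FastQC, Trimmomatic 0.33 and kallisto are named in the submitters' processing notes. The role of each tool, with the transcriptome, build and use of strand, is not given in the sources used here. For that reason no coordinates or sequences are printed. Symbols and gene order came from the TAIR10.1 gene table, which held 97.7% of the loci. These estimated counts were rounded, filtered with filterByExpr by group and scaled with TMM factors of 0.927 to 1.11. The quasi-likelihood test of edgeR 4.0.16 (robust, R 4.3.3) was fitted to all 30 libraries with 1 coefficient per group, which left 15 residual degrees of freedom, and the common BCV (biological coefficient of variation) was 0.125. P-values were adjusted by Benjamini-Hochberg over 19980 genes in each of 10 comparisons, and a gene was called under 0.05. The SE is the size of the log2 difference divided by the square root of F. CPM are scaled to the TMM-adjusted library size.

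The comparison and the 31 gene lists (384 loci, 383 in the table and 362 tested) were chosen with earlier results of these data known. The genes named are the 15 widest calls in each direction without overlap between libraries and with at least 5 CPM in the higher group, the 5 widest in each direction of each filter contrast, up to 4 called members per list with the smallest adjusted p, and a fixed set of light-response genes. Genes with a group at 0 were not named from the filter contrasts. Other list members are named as examples or as ends of a range, and these were chosen after their values were seen. The anthocyanin gene 5MAT was not analysed here. A further listed gene is not reported here by name. Replicate libraries differed beyond counting noise, at 25 (uvr8-2) and 26.4 (cry1cry2) chi-square units per degree of freedom. Counting intervals are exact at 95% and cover counting error only. DESeq2 1.42.0, its size factors, other filters on low counts, a replicate block, only the libraries compared, nuclear loci alone and leaving out each library were tried as alternatives. The edgeR fit was first tried on simulated data, for the UVA+B comparison and for the contrast with the mean of the other filters. In the simulated UVA+B comparison, 19.4% of 67 genes set 1.5-fold apart were recovered. At 2-fold the share was 71.6% of 67 genes, and at 4-fold it was 95.5% of 66. The simulated fit held 19878 genes, and 7 unchanged ones were called. In the measured libraries 24.5% of genes were called. The Benjamini-Hochberg cut-off depends on how many genes differ, so these shares do not give the recovery in the measured comparison.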

Additional observations from a re-analysis of the deposited data

Results flagged for a closer look

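These genes were picked out because the difference between uvr8-2 and cry1cry2 under UVA+B departed from the one under other filters, by the edgeR contrast that tests the departure. The values are contrasts on the log2 scale and are positive where uvr8-2 minus cry1cry2 was larger under UVA+B. Only the 5 widest in each direction of each contrast are listed.

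Against UVA the upward contrasts were 2.47 for AT3G28270, 1.85 for FRO6, 1.79 for AT1G68600, 1.77 for AT1G23390 and 1.72 for AT2G29300. The downward ones were -2.37 for AT4G15690, -1.84 for F3'H, -1.78 for AT4G30470, -1.73 for AT1G06002 and -1.70 for AT4G18422. AT1G23390 went from -1.09 under UVA to 0.68 under UVA+B, both called. AT4G18422 was not called under UVA+B (0.03 ± 0.22, adjusted p = 0.929) and was called higher in uvr8-2 under UVA (1.73), UVA350 (4.199) and UV0 (2.89). Counts of AT4G15690, from a cluster of glutaredoxin genes, are uncertain because close copies can share reads.

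Against blue0 the upward contrasts were 4.38 for LEA3, 3.40 for AT5G44260, 3.01 for AT1G18265, 2.71 for AT5G57760 and 2.68 for ATSPS4F. The downward ones were -3.34 for AT5G62210, -3.03 for AT1G30190, -2.97 for AT5G51440, -2.92 for UVR3 and -2.85 for FLS1. LEA3 was not called under UVA+B (1.502 ± 0.75, adjusted p = 0.162).

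Against the mean of the other 4 filters the upward contrasts were 3.85 for AT5G44260, 3.76 for ACS8, 3.07 for AT5G57760, 2.98 for AT3G21330 and 2.77 for AT3G28270. The downward ones were -4.59 for AT1G52990, -3.73 for ELIP2, -3.60 for AT5G62210, -3.53 for UGT91A1 and -3.41 for ELIP1. ACS8, an ethylene synthesis gene, was at 2.15 and 1.67 CPM in uvr8-2 and at 0.218 and 0.109 CPM in cry1cry2, with Ler at 0.785 and 0.512 CPM. The 2 genotypes did not overlap in ACS8, but its UVA+B call was lost in 2 of the 4 fits without a library.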

How the results depend on the processing

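With 2 libraries a group, the counts of called genes depended on single libraries and on which libraries set the spread. No named value that was called with all 30 libraries in the fit changed sign. Of the 4905 UVA+B calls, 1447 (29.5%) were kept in every fit without 1 library and 4462 (91.0%) were also called by DESeq2. The UVA+B count ran from 2212 to 5020 without 1 library, the UVA count from 203 to 508, UVA350 from 1246 to 1702, UV0 from 961 to 1863 and blue0 from 105 to 257. The contrast with UVA ran from 16 to 1145, with blue0 from 310 to 1550 and with the mean of the other filters from 1027 to 3568. The count against Ler ran from 680 to 3929 for uvr8-2 and from 32 to 233 for cry1cry2. With only the groups compared in the fit, and so fewer samples behind each estimate of spread, the counts were 1399 (UVA+B), 346 (UVA), 1547 (UVA350), 1355 (UV0), 3 (contrast with UVA), 295 (contrast with blue0), 114 (uvr8-2 against Ler) and 20 (cry1cry2 against Ler). DESeq2 gave 579 for the contrast with UVA and 270 for cry1cry2 against Ler, and the cause was not tested. Of 1293 values for 118 genes named under UVA+B, 113 lost the call and 1 gained it. The other 1179 were counted as unchanged, and a change of sign in an uncalled gene was not counted apart. Of 568 values for 30 genes named from filter contrasts, 476 kept the call and 92 lost it. Of 682 list counts, 571 stayed within 1.5 times.

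The replicate numbers in the labels name pooled pairs of blocks, but the labels do not say that a number marks the same blocks in every group. Deviations of same-numbered libraries correlated at 0.026 to 0.435 over 105 pairs of groups, with a median of 0.178 and 92 pairs over 0.1. A fit with the replicate number as a block called 6356 genes under UVA+B, 1556 under UVA, 3888 under UVA350, 3565 under UV0 and 1181 under blue0. It called 1151, 1912 and 4432 for the contrasts with UVA, blue0 and the mean, and 4672 and 490 for uvr8-2 and cry1cry2 against Ler.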
